A study of Oryza sativa with 9 samples.

Results

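The squamosa promoter-binding-like (SPL) transcription factors of rice were examined in young panicles of the wild type and of 2 mutant lines of OsMADS58, a C-class MADS box gene. The 10 genes OsSPL2, OsSPL3, OsSPL4, OsSPL7, OsSPL12, OsSPL13, OsSPL14, OsSPL16, OsSPL17 and OsSPL18 were taken by their identifiers from a table of 56143 genes, and all 10 were found and passed the filter on low counts. RNA of panicles about 1 cm long was sequenced from 3 wild-type samples (the study grew the japonica cultivar Nipponbare), 4 samples of osmads58 dSpm and 2 samples of osmads58 CRISPR. In osmads58 dSpm, a dSpm transposon sits in an intron of OsMADS58, and in osmads58 CRISPR, Cas9 editing left frameshifts in the gene. GEO's labels give both lines the genotype osmads58-/-. The CRISPR samples came from separate transgenic lines, were taken from fully sterile plants only and each mixed the panicles of several plants. The groups hold no line that was transformed but not edited, so effects of transformation and of the knockout cannot be told apart. The study received the dSpm line as a gift and names no parent or sibling wild type for it. Effects of its background and of the insertion cannot be told apart either.

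SPL proteins are specific to plants and bind DNA through the SBP domain, which holds a pair of zinc-binding pockets. Many SPL messengers, those of the genes described here among them, carry a site for the microRNA miR156, which lowers their level and their translation while a plant is young. As miR156 declines with age, SPL proteins drive the change from juvenile to adult growth, set the number of tillers and panicle branches, and shape the grain. The libraries were made from polyadenylated RNA, so mature miR156 was not measured, and SPL protein was not measured either.

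The deposited counts summed to between 65192657 and 83042245 per sample. Levels are given as CPM, the usual scaling of counts to library size, with edgeR's TMM factors for library composition. Between 37.2% and 40.7% of the counts from 1 to 40 were multiples of 4 in each sample, so 1 read pair may weigh several counts, and a low count is less precise than its size. OsMADS58 lay between 3.29 and 8.38 CPM in the wild type, between 0.72 and 2.1 CPM in osmads58 dSpm and at 0.27 and 0.47 CPM in osmads58 CRISPR. The groups did not overlap. By edgeR, OsMADS58 was called lower in osmads58 CRISPR (-3.81 on the log2 scale, standard error, SE, of 0.67, adjusted p = 0.0153, lost without either CRISPR sample) but not in osmads58 dSpm (-1.66, SE 0.47, adjusted p = 0.118). Wild type 1 and osmads58 dSpm 1 stood apart from their groups in a like way: the correlation of their deviations from the group means, 0.31 across 27251 genes, was the highest of the pairs of samples from different groups. The osmads58 dSpm samples 4b and 5b, set apart in the labels by the letter b, whose meaning is not given, had a summed level of 7 meiotic genes of 393 and 409 CPM. In osmads58 dSpm 1 and 2 that sum was 118 and 134 CPM, in the wild type 199.9 to 215 CPM and in osmads58 CRISPR 136 and 183 CPM. A list of 7 loci chosen as floral organ genes had counts for every locus in every sample, with a summed level from 253 CPM in osmads58 CRISPR 1 to 1047 CPM in wild type 1. For several of the SPL genes, results are also given without some of these samples.

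A gene was called when its adjusted p-value was under 0.05 and its log2 fold change was over 1 in size. Of the 10 SPL genes, 0 were called in osmads58 dSpm against the wild type by edgeR, where 1.18% of the 27251 tested genes were called higher and 0.268% lower. In osmads58 CRISPR against the wild type, 0 were called by edgeR, with 2.04% of all genes called higher and 3.51% lower. Between the lines, 1 gene, OsSPL2, was called, and its level was the lower one in the CRISPR line, as for 3.93% of all genes (1.44% had the higher level there). At an unadjusted p-value under 0.05, the numbers were 1, 6 and 3 of 10 in the same order, where 16.6%, 25.7% and 23.7% of all genes passed. DESeq2 called 0 in osmads58 dSpm, where it called 3.39% of all genes higher and 1.17% lower. In osmads58 CRISPR against the wild type it called 3 (OsSPL13, OsSPL16 and OsSPL17), all higher, with 4.72% of all genes called higher and 6.73% lower by that tool. Between the lines DESeq2 called OsSPL2 lower, as it did 7.21% of all genes, and OsSPL3 higher, as it did 2.93%. The median log2 fold change of the 10 genes was 0.05 in osmads58 dSpm and 0.48 in osmads58 CRISPR, and that of all tested genes was 0.06 and 0.00. Both lines were compared with the same wild-type samples.

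**Figure D1:**
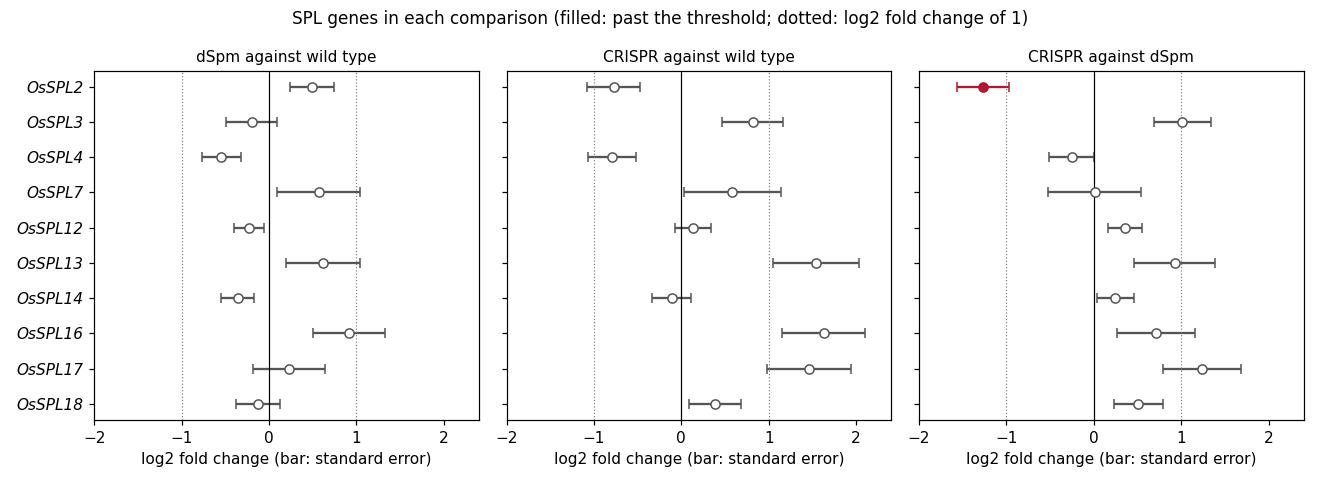
Log2 fold change of each SPL gene with its standard error in osmads58 dSpm and osmads58 CRISPR against the wild type and between the lines, from 1 edgeR fit of 9 samples. Only OsSPL2 between the lines, at -1.27, is past the threshold (filled point), and OsSPL13, OsSPL16 and OsSPL17 have the largest positive values in osmads58 CRISPR against the wild type, 1.54, 1.63 and 1.46.

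OsSPL14 (LOC_Os08g39890, chromosome 8), also known as IPA1 and WFP, restrains tillering and raises the number of panicle branches. It was at 226, 285 and 341 CPM in the wild type. In osmads58 dSpm 1, 2, 4b and 5b it was at 271, 210, 220 and 182 CPM, and in osmads58 CRISPR at 293 and 232 CPM. The ranges of the groups overlapped, and no difference passed the test. The log2 fold change was -0.36 in osmads58 dSpm (SE 0.19, adjusted p = 0.376 by the quasi-likelihood F test of edgeR) and -0.11 in osmads58 CRISPR (SE 0.23, adjusted p = 0.807). Its highest level over the 9 samples was 1.87 times the lowest.

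OsSPL17 (LOC_Os09g31438, chromosome 9) acts with OsSPL14 and OsSPL7 in tillering and panicle branching. It had few counts, from 69 to 304 in the wild type, which is 0.95, 2.02 and 3.87 CPM. The osmads58 dSpm samples lay close together at 2.46, 2.81, 2.74 and 2.64 CPM, and osmads58 CRISPR was at 6.78 and 5.80 CPM. Each CRISPR sample was above every other sample, while the dSpm samples lay within the range of the wild type. Against the wild type, the CRISPR mean was 2.76 times as high, with a log2 fold change of 1.46 (SE 0.48, adjusted p = 0.0955), which did not pass the threshold. With DESeq2 the log2 fold change was 1.44 and the adjusted p was 0.0387. Without wild type 3, edgeR gave a log2 fold change of 2.08 and an adjusted p of 0.0458 (2.68% of all genes were called in that fit). Without wild type 1 it was 1.09 (adjusted p = 0.132), without wild type 2 it was 1.38 (adjusted p = 0.205), and the adjusted p ranged from 0.0297 to 0.366 over all 22 alternatives. Set against osmads58 dSpm, the log2 fold change was 1.24 (SE 0.45, adjusted p = 0.131), and without wild type 1 the adjusted p was 0.0398, with 6.1% of all genes called.

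OsSPL7 (LOC_Os04g46580, chromosome 4) followed another pattern. It was at 1.78, 4.24 and 3.97 CPM in the wild type and at 5.16 and 4.81 CPM in osmads58 CRISPR. In osmads58 dSpm it was at 2.63 and 2.57 CPM in the samples 1 and 2 and at 7.40 and 7.18 CPM in the samples 4b and 5b. The highest and the lowest mutant samples were thus from the same line. The log2 fold change was 0.57 in osmads58 dSpm (SE 0.48, adjusted p = 0.610) and 0.58 in osmads58 CRISPR (SE 0.56, adjusted p = 0.558).

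**Figure D2:**
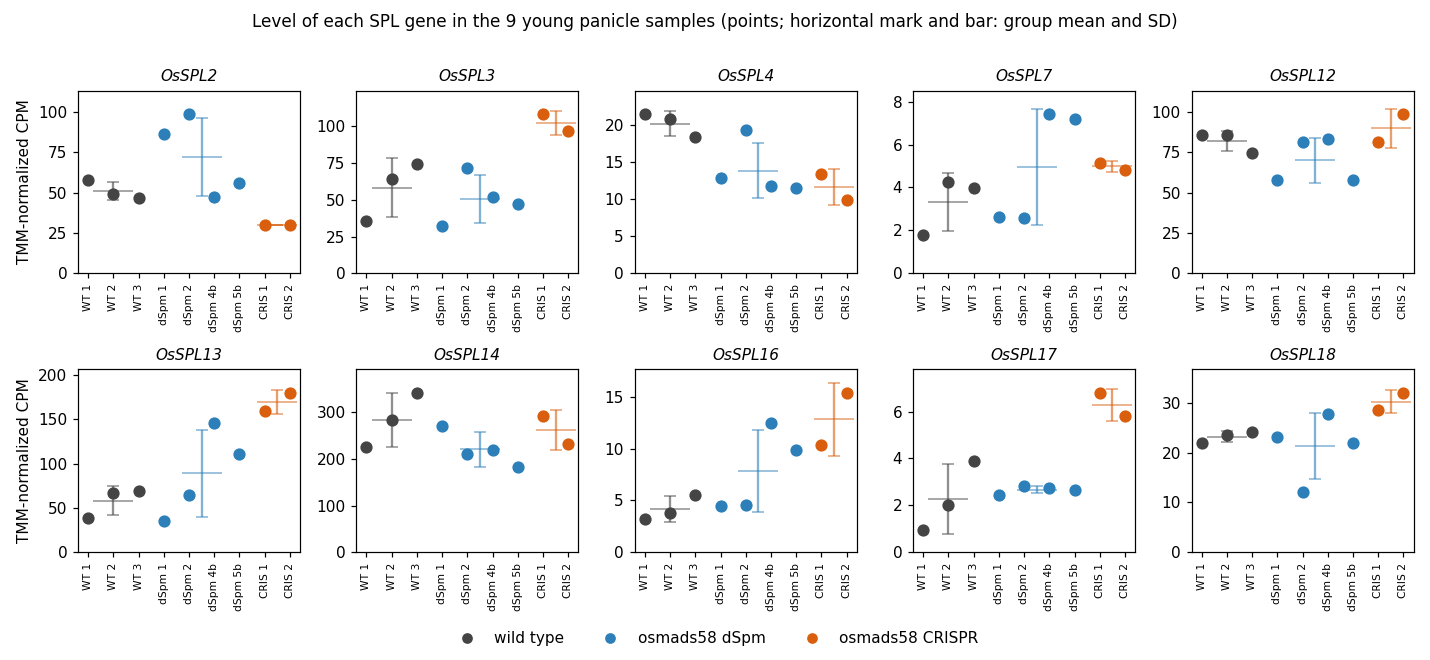
Level in CPM of each of the 10 SPL genes (1 panel each, axis from 0) in the 9 samples. Points are samples, and the horizontal marks with bars are the group means with their SD. OsSPL17 is highest in both CRISPR samples (6.78 and 5.80 CPM), OsSPL2 is lowest there (29.9 CPM in each), and OsSPL7, OsSPL13 and OsSPL16 are higher in dSpm 4b and 5b than in dSpm 1 and 2.

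Of the genes tied to grain shape, OsSPL13 and OsSPL16 had higher levels in osmads58 CRISPR than in any wild-type sample, whereas OsSPL18 differed less. OsSPL13 (LOC_Os07g32170, chromosome 7), also known as GLW7, promotes grain length. It was at 39.0, 66.8 and 69.1 CPM in the wild type and at 159.8 and 179 CPM in osmads58 CRISPR. In osmads58 dSpm it was at 35.5 and 64.0 CPM in the samples 1 and 2, within or just below the wild-type range, and at 146 and 111 CPM in the samples 4b and 5b, above it. The CRISPR mean was 2.91 times that of the wild type (log2 fold change 1.54, SE 0.49, adjusted p = 0.0881, not past the threshold). DESeq2 gave an adjusted p of 0.0199. By edgeR it passed without osmads58 dSpm 1 (adjusted p = 0.0236, in a fit that called 9.38% of all genes) but not without wild type 1 (log2 fold change 1.32, adjusted p = 0.211), and the adjusted p ranged from 0.00407 to 0.370 over the 22 alternatives.

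OsSPL16 (LOC_Os08g41940, chromosome 8), a gene that sets grain width, had fewer counts. It was at 3.18, 3.74 and 5.53 CPM in the wild type, at 4.45, 4.60, 12.4 and 9.88 CPM in osmads58 dSpm 1, 2, 4b and 5b, and at 10.3 and 15.3 CPM in osmads58 CRISPR. Both CRISPR samples and dSpm 4b and 5b were above all wild-type samples, and dSpm 1 and 2 lay within the wild-type range. Its log2 fold change for osmads58 CRISPR was 1.63 (SE 0.48, adjusted p = 0.0682), 3.09 times the wild type by the means, and DESeq2 gave an adjusted p of 0.0130. By edgeR it passed without osmads58 dSpm 1 (adjusted p = 0.0374) but not without wild type 1 (log2 fold change 1.47, adjusted p = 0.169), and the range over the 22 alternatives was from 0.00989 to 0.395. In osmads58 dSpm the log2 fold change was 0.92 (SE 0.41, adjusted p = 0.303).

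The tests of both genes depended on which osmads58 dSpm samples were used. With dSpm 4b and 5b as the only samples of that line, OsSPL13 was called higher in osmads58 dSpm than in the wild type, by 1.11 on the log2 scale (adjusted p = 0.0286), and OsSPL16 by 1.39 (adjusted p = 0.0214). In that fit 9.28% of all genes were called, and 8.26% were called between the lines. With dSpm 1 and 2 only, 0.415% of all genes were called (8.09% between the lines), and the log2 fold changes were -0.26 for OsSPL13 (adjusted p = 0.817) and 0.10 for OsSPL16 (adjusted p = 0.943). The level in osmads58 CRISPR against the wild type passed the threshold for both genes in either of these fits, with log2 fold changes of 1.52 to 1.54 for OsSPL13 and 1.61 to 1.63 for OsSPL16. There 7.32% of all genes were called with dSpm 1 and 2 only and 12.9% with dSpm 4b and 5b only. Between the lines, the edgeR fit of all samples gave 0.93 for OsSPL13 (adjusted p = 0.258) and 0.71 for OsSPL16 (adjusted p = 0.370), neither called. Both genes were called higher in osmads58 CRISPR than in osmads58 dSpm with dSpm 1 and 2 only, and neither was with dSpm 4b and 5b only. The summed meiotic genes were also higher in dSpm 4b and 5b than in dSpm 1 and 2. In osmads58 CRISPR the sum was below every wild-type sample, but MEL1 set that order: the other 6 genes summed to 77.6 to 85.1 CPM in the wild type and to 89.5 and 104 CPM in osmads58 CRISPR, above it. Their part in the levels of OsSPL13 and OsSPL16 was not tested. In bulk panicles, a difference in the number of cells of a type and one in RNA per cell cannot be told apart.

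OsSPL18 (LOC_Os09g32944, chromosome 9), which affects grain weight and the number of grains, was at 22.0, 23.6 and 24.1 CPM in the wild type. It was at 23.2, 12.03, 27.8 and 22.0 CPM in osmads58 dSpm 1, 2, 4b and 5b and at 28.6 and 31.9 CPM in osmads58 CRISPR. The CRISPR samples lay above all others by a small margin, with a log2 fold change of 0.38 against the wild type (SE 0.30, adjusted p = 0.463). The lowest level was that of osmads58 dSpm 2.

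OsSPL3 (LOC_Os02g04680, chromosome 2), which has a role in crown root development, was higher in both CRISPR samples than in all others. It was at 35.8, 64.3 and 74.2 CPM in the wild type, at 32.4, 71.5, 51.6 and 47.0 CPM in osmads58 dSpm 1, 2, 4b and 5b, and at 108 and 96.6 CPM in osmads58 CRISPR. Wild type 1 and osmads58 dSpm 1, the pair that deviated in a like way, had the lowest levels of their groups. Its log2 fold change for osmads58 CRISPR was 0.82 against the wild type (SE 0.35, adjusted p = 0.179). Against osmads58 dSpm it was 1.01 (SE 0.33, adjusted p = 0.0962), a difference that was called by DESeq2 only (adjusted p = 0.0356). Without wild type 1 and osmads58 dSpm 1 together, the difference between the lines had an adjusted p of 0.0253 by edgeR, but at 0.85 its log2 fold change was below the threshold.

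OsSPL12 (LOC_Os06g49010, chromosome 6) varied least, with its highest level 1.70 times its lowest. It was at 85.6, 85.6 and 74.7 CPM in the wild type, at 58.0, 81.1, 83.05 and 58.0 CPM in osmads58 dSpm 1, 2, 4b and 5b and at 81.4 and 98.4 CPM in osmads58 CRISPR. The groups overlapped in the comparisons of each line with the wild type, with log2 fold changes of -0.23 (SE 0.17, adjusted p = 0.576) and 0.13 (SE 0.21, adjusted p = 0.742).

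OsSPL4 and OsSPL2 were the genes whose CRISPR samples both lay below the wild-type range. OsSPL4 (LOC_Os02g07780, chromosome 2) was at 21.4, 20.8 and 18.4 CPM in the wild type, and wild-type samples differed little. It was at 12.9, 19.3, 11.7 and 11.5 CPM in osmads58 dSpm 1, 2, 4b and 5b and at 13.4 and 9.94 CPM in osmads58 CRISPR. All mutant samples but osmads58 dSpm 2 lay below the wild-type range. The log2 fold change was -0.55 in osmads58 dSpm (SE 0.22, unadjusted p = 0.0359, adjusted p = 0.262) and -0.80 in osmads58 CRISPR (SE 0.28, unadjusted p = 0.0168, adjusted p = 0.108). Neither was called.

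OsSPL2 (LOC_Os01g69830, chromosome 1) was the only gene of the 10 that edgeR called between the mutant lines in the fit of all 9 samples. It was at 57.7, 49.0 and 46.7 CPM in the wild type. In osmads58 dSpm 1 and 2 it was at 86.1 and 98.4 CPM, above the wild type, in dSpm 4b and 5b at 47.1 and 56.2 CPM, within the wild-type range, and in both osmads58 CRISPR samples at 29.9 CPM, below every other sample. Between the lines the log2 fold change was -1.27 (SE 0.30, adjusted p = 0.0355 by the quasi-likelihood F test of edgeR, and 0.00115 with DESeq2), so that the CRISPR mean was 0.42 times the dSpm mean. Against the wild type the log2 fold change was 0.49 in osmads58 dSpm (SE 0.25, adjusted p = 0.359) and -0.77 in osmads58 CRISPR (SE 0.30, adjusted p = 0.146). For osmads58 CRISPR, an edgeR fit of those groups alone gave -0.78 (adjusted p = 0.0211), below the fold change threshold, and DESeq2 gave -0.79 (adjusted p = 0.0793). The call between the lines was lost when wild type 2 or 3 was left out (adjusted p = 0.0622 and 0.0603), in a fit of both mutant lines alone (adjusted p = 0.0854) and without osmads58 CRISPR 1 or 2 (adjusted p = 0.256 and 0.279), where the lone sample of the line is assumed to vary like the others. With dSpm 4b and 5b only, the log2 fold change was -0.77 (adjusted p = 0.0188), below the fold change threshold, and with dSpm 1 and 2 only it was -1.59 (adjusted p = 0.00503). The genes whose log2 CPM was most like that of OsSPL2 over the 9 samples, among 13242 others with a mean of at least 10 CPM, were LOC_Os04g52730 (Pearson r = 0.995) and LOC_Os01g48440 (Pearson r = 0.992). They were picked as the highest of many, and the sources used here give no name for them.

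Read by ranges rather than by the test, 6 of the 10 genes (OsSPL3, OsSPL7, OsSPL13, OsSPL16, OsSPL17 and OsSPL18) lay above the wild type in both osmads58 CRISPR samples, and 2 (OsSPL2 and OsSPL4) lay below it in both. Among all tested genes, 29% lay above and 25.6% below in this way. In osmads58 dSpm, 0 of the 10 genes lay wholly above or below the wild type, against 8.69% and 6.43% of all genes. Between the lines 4 lay above and 1 below, against 19.7% and 20.7% of all genes. The summed level of the 10 genes was between 493 and 662 CPM in the wild type, between 508 and 611 CPM in osmads58 dSpm and at 736 and 704 CPM in osmads58 CRISPR. A sum weighs each gene by its level, so it does not describe the family as a whole. Within it, OsSPL14 overlapped between the groups, at 226 to 341 CPM in the wild type and 293 and 232 CPM in osmads58 CRISPR. OsSPL13 was at 39.0 to 69.1 CPM in the wild type and at 159.8 and 179 CPM in osmads58 CRISPR.

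**Figure D3:**
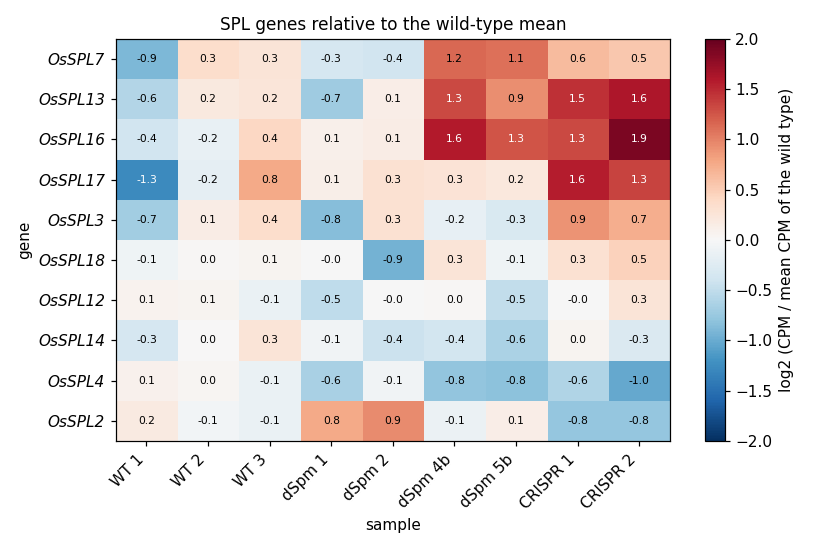
Log2 ratio of the CPM of each SPL gene (rows) to the mean of the wild type, in each sample (columns). OsSPL13 and OsSPL16 are high in dSpm 4b and 5b and in both CRISPR samples, with log2 ratios of 0.93 to 1.89, while OsSPL2 is high in dSpm 1 and 2 only and low in CRISPR.

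For OsSPL7, OsSPL13 and OsSPL16 the samples of osmads58 dSpm differed more among themselves than the means of the mutant lines did, which were 1.01, 1.90 and 1.63 times as high in osmads58 CRISPR as in osmads58 dSpm. The mean of dSpm 4b and 5b was 2.80 times that of dSpm 1 and 2 for OsSPL7, 2.59 times for OsSPL13 and 2.47 times for OsSPL16. For OsSPL2 it was 0.56 times and for OsSPL4 0.72 times. OsSPL3, OsSPL12 and OsSPL17 were nearly even, at 0.95, 1.01 and 1.02 times. These ratios rest on a pair of samples each and were not tested.

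Ratios of genes within a library do not depend on how libraries are scaled. OsSPL16 and OsSPL18 are close relatives, as are OsSPL14 and OsSPL17. The count of OsSPL16 over that of OsSPL18 was 0.14, 0.16 and 0.23 in the wild type, 0.19, 0.38, 0.45 and 0.45 in osmads58 dSpm 1, 2, 4b and 5b and 0.36 and 0.48 in osmads58 CRISPR. The count of OsSPL17 over that of OsSPL14 was 0.0042, 0.0071 and 0.011 in the wild type, 0.0091, 0.013, 0.012 and 0.015 in the dSpm samples in the same order, and 0.023 and 0.025 in the CRISPR samples. In osmads58 CRISPR, OsSPL16 and OsSPL17 lay above the wild type in CPM, OsSPL18 did so by a smaller margin, and OsSPL14 overlapped it. A higher ratio there restates these levels and is no separate evidence of a difference. In both of these pairs, the CRISPR samples had a higher ratio than all wild-type samples. This was not so for OsSPL3 over OsSPL12, which was at 0.42, 0.75 and 0.99 in the wild type, 0.56, 0.88, 0.62 and 0.81 in the dSpm samples and 1.33 and 0.98 in the CRISPR samples. OsSPL13 lay above and OsSPL2 below the wild type in osmads58 CRISPR, so a higher ratio there follows from this choice of pair. The count of OsSPL13 over that of OsSPL2 was 0.68, 1.36 and 1.48 in the wild type and 5.34 and 5.99 in osmads58 CRISPR. In osmads58 dSpm that ratio was 0.41 and 0.65 in samples 1 and 2 and 3.10 and 1.98 in samples 4b and 5b. It ordered the dSpm samples on either side of the wild-type range. The ratios also move with gene length, which was not at hand, so their size says nothing of which gene of a pair is expressed more.

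Over the 9 samples, 27 of the 45 pairs of genes had a positive Pearson correlation of log2 CPM, with a median of 0.20. OsSPL13 and OsSPL16 had the highest, 0.93, followed by OsSPL7 with OsSPL13 at 0.82, OsSPL3 with OsSPL17 at 0.81 and OsSPL7 with OsSPL16 at 0.80. OsSPL2 and OsSPL4 had negative correlations with each of these genes, though that of OsSPL4 with OsSPL3 was weak at -0.15. The correlation of OsSPL4 with OsSPL16 was -0.88 and that of OsSPL2 with OsSPL13 was -0.75. With OsSPL18, which is not among these genes, OsSPL2 had a correlation of -0.83. OsSPL14 had no correlation over 0.32 in size with any other of the 10 genes. With OsMADS58, the correlation was lowest for OsSPL17 (-0.84), OsSPL3 (-0.72) and OsSPL13 (-0.68), and highest for OsSPL4 (0.55). The 9 points share the 3 groups, in which OsMADS58 differs by genotype, so these values describe the samples and carry no test.

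**Figure D4:**
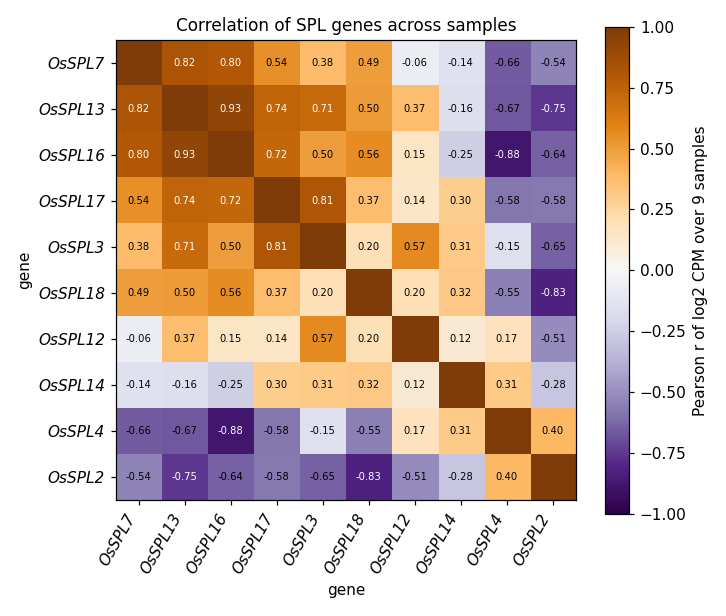
Pearson correlation of log2 CPM over the 9 samples for each pair of SPL genes (colour and number). OsSPL7, OsSPL13 and OsSPL16 form a set with values of 0.80 to 0.93, and OsSPL2 and OsSPL4 are negative against each of these.

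A list of 9 further loci was drawn up as the other SPL genes of rice. No table at hand pairs these identifiers with names, so they are given by identifier. All 9 were tested, and 0 were called in osmads58 dSpm or in osmads58 CRISPR against the wild type by edgeR. In the same order, 1 and 4 had an unadjusted p-value under 0.05, as did 16.6% and 25.7% of all genes. DESeq2 called 0 and 2, both of the latter higher, where it called 3.39% and 4.72% of all genes higher. Between the lines, edgeR called 2, both higher in osmads58 CRISPR, where it called 1.44% of all genes higher. DESeq2 called 3 higher there, LOC_Os04g56170 being the third (adjusted p = 0.0181), with 2.93% of all genes. LOC_Os06g44860 was at 19.4, 85.6 and 80.5 CPM in the wild type, 47.6, 93.4, 28.7 and 24.6 CPM in osmads58 dSpm 1, 2, 4b and 5b and 217 and 331 CPM in osmads58 CRISPR. Its log2 fold change between the lines was 2.50 (SE 0.61, adjusted p = 0.0407). LOC_Os02g08070 had from 19 to 195 counts in osmads58 dSpm and 726 and 835 counts in osmads58 CRISPR, and its log2 fold change between the lines was 2.92 (SE 0.70, adjusted p = 0.0379).

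A list of 19 loci was drawn up for genes that act with SPL factors in branching, strigolactone and gibberellin response, grain shape and the turn to spikelet growth. It too is given by identifier only. All 19 were tested, and 1 was called higher in osmads58 dSpm against the wild type, as were 1.18% of all genes. In osmads58 CRISPR against the wild type, 0 were called by edgeR and 0 by DESeq2. There 5 had an unadjusted p-value under 0.05, as did 25.7% of all genes. Between the lines, 1 was called lower, as were 3.93% of all genes. The same locus, LOC_Os03g60430, gave both calls. It was at 11.2, 14.5 and 14.9 CPM in the wild type, 45.3, 55.2, 53.6 and 49.9 CPM in osmads58 dSpm 1, 2, 4b and 5b and 14.3 and 15.3 CPM in osmads58 CRISPR. All dSpm samples were above all others, with a log2 fold change of 1.91 against the wild type (SE 0.16, adjusted p = 0.00121) and of -1.78 for osmads58 CRISPR against osmads58 dSpm (SE 0.19, adjusted p = 0.00191). None of the 10 SPL genes had this pattern. The median log2 fold change of the list was -0.10 in osmads58 dSpm and -0.09 in osmads58 CRISPR against the wild type.

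Markers of other cells and tissues were read in the same samples. Of 9 photosynthetic genes named by the study, 8 were tested, 6 lay above the wild type in both osmads58 CRISPR samples (29% of all genes did), and OsPsaG had a count of 0 in every sample. The summed level was between 97.5 and 106 CPM in the wild type, between 107 and 144 CPM in osmads58 dSpm and at 152 and 125 CPM in osmads58 CRISPR, where OsPsaN was called higher (log2 fold change 1.96, adjusted p = 0.0266). Of the 7 meiotic genes, ZEP1, a component of the synaptonemal complex, was called higher in osmads58 CRISPR against the wild type (log2 fold change 1.52, adjusted p = 0.0493). MEL1, an Argonaute protein of germ cells, was at 62.3 ± 23.1 CPM (SD, n = 2) in osmads58 CRISPR and 126 ± 4.90 CPM (SD, n = 3) in the wild type. That difference was not called (log2 fold change -1.01, SE 0.75, adjusted p = 0.432 by edgeR). In osmads58 dSpm 1, 2, 4b and 5b, MEL1 was at 48.2, 54.0, 272 and 295 CPM, so a level below the wild type was not particular to osmads58 CRISPR. Of the 7 floral organ loci, 0 were called by edgeR in osmads58 CRISPR against the wild type (for 2 the unadjusted p-value was under 0.05, and DESeq2 called 2, both lower), and 4 lay below the wild type in both CRISPR samples, as did 25.6% of all genes. The part of these differences in the levels of the SPL genes was not tested.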

How the data were processed

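Young panicle RNA of 9 samples was analysed in 3 groups, taken from the sample titles (WT, 58Z and 58CRIS). The 58Z samples were read as osmads58 dSpm because 58CRIS names the other mutant line and the study has 4 dSpm samples. The authors aligned their reads with Hisat 2.1.0 to MSU v7.0 and ran StringTie 1.3.3b on the alignments. The deposited table holds estimated counts for each gene, all whole numbers, so rounding changed none. How coverage became counts is not stated.

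In R 4.3.3, edgeR 4.0.16 (TMM, filterByExpr by group, glmQLFit, glmQLFTest) was fitted once to all 9 samples, with 27251 of 56143 genes tested. Calls needed a Benjamini-Hochberg adjusted p-value under 0.05 over all tested genes and an absolute log2 fold change over 1. A standard error (SE) is the size of the log2 fold change divided by the square root of F. Correlations used log2 CPM with a prior count of 2. The fit was tested on simulated counts in which 200 genes were changed by 3 on the log2 scale in both mutant lines. It recovered 178 of them in osmads58 dSpm and 159 in osmads58 CRISPR against the wild type, with 5 and 6 other calls. Smaller changes, such as those of the SPL genes, were not simulated. DESeq2 1.42.0 was an alternative, as were other scalings (RLE, upper quartile), filters (none, a mean of at least 10 counts), subsets of samples, a replicate block, counts divided by 4 and no fold change threshold. Scaling by library size alone and leaving out wild type 1 with osmads58 dSpm 1 were chosen after seeing the data.

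All 10 SPL genes, OsMADS58, called genes of the lists and the closest correlates of called SPL genes were named. Members and lists were chosen with earlier results of these data known. In RefSeq (assembly ASM3414082v1), 7 of the 10 matched by symbol. No transcript lengths were at hand, so levels were not compared between genes. A replicate is a sample that the labels list separately.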

Additional observations from a re-analysis of the deposited data

Results flagged for a closer look

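OsSPL2 differed between the mutant lines by the direct test. The log2 fold change, CRISPR against dSpm, was -1.27, with both CRISPR samples at 29.9 CPM below all 4 dSpm samples, of which 1 and 2 were at 86.1 and 98.4 CPM and 4b and 5b at 47.1 and 56.2 CPM. Among the 4 osmads58 dSpm samples, no single sample of any of the 10 genes stood far enough from the others to pass Dixon's test. A pattern of paired samples, as in OsSPL7, OsSPL13 and OsSPL16, cannot be found by that test.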

How the results depend on the processing

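Each of the 10 genes was tested in 3 comparisons under 22 alternatives. Of the 660 values, 607 kept their direction and their side of the threshold, 26 passed it, 6 (all of OsSPL2 between the lines) no longer did and 21 changed sign, none of them called. The cause of these changes was not tested.

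The number of SPL genes called in osmads58 dSpm against the wild type was 0 except with dSpm 4b and 5b only, where it was 2. In osmads58 CRISPR against the wild type it was 3 with DESeq2, 2 in a fit of those groups alone (10.3% of all genes), 2 with dSpm 1 and 2 only, 2 with dSpm 4b and 5b only, 1 without wild type 1 and osmads58 dSpm 1 together (8.26%) and from 0 to 2 with 1 sample left out (2 without osmads58 dSpm 1, 1 without wild type 3). Between the lines it was 2 with DESeq2, 3 with dSpm 1 and 2 only, 0 with dSpm 4b and 5b only, 2 without wild type 1 and osmads58 dSpm 1 together (8.1%) and from 0 to 2 with 1 sample left out. In a fit of the mutant lines alone, which called 3.63% of all genes, it was 1, but the gene was OsSPL17 (adjusted p = 0.0436) and not OsSPL2.

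Same-numbered samples had correlated deviations of 0.31 and 0.13 between wild type and osmads58 dSpm, and of -0.02 for both pairs of wild type and osmads58 CRISPR, so the numbers were not taken to pair the samples. With the replicate block, 0 genes were called in osmads58 dSpm, 3 in osmads58 CRISPR (OsSPL13, OsSPL16, OsSPL17) and 3 between the lines (OsSPL2, OsSPL13, OsSPL16), where 0.558%, 9.32% and 10.5% of all genes were called. Wild type 3 and osmads58 dSpm 4b and 5b each form a block alone in that fit. Its comparisons therefore rest on the samples numbered 1 and 2 only, not on all 9.

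OsMADS58 in osmads58 CRISPR against the wild type ranged from -4.25 to -3.29 with 1 sample left out and lost its call without either CRISPR sample. In osmads58 dSpm it was called with DESeq2 only (-1.70). Between the lines it was called with DESeq2 (-2.13), with dSpm 4b and 5b only (-2.32), without wild type 1 and osmads58 dSpm 1 together (-2.01). With 1 sample left out it ranged from -2.57 to -1.77 and was called only without wild type 1 (adjusted p = 0.0486) or osmads58 dSpm 2 (adjusted p = 0.0278).

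Signs changed in uncalled values as follows. In osmads58 dSpm against the wild type, the replicate block gave 0.024 for OsSPL3, -0.14 for OsSPL7 and -0.10 for OsSPL13, and dSpm 1 and 2 only gave -0.39 for OsSPL7 and -0.26 for OsSPL13. With dSpm 4b and 5b only, OsSPL2 was at -0.016 and OsSPL18 at 0.066. Without wild type 1 and osmads58 dSpm 1 together, OsSPL17 was at -0.11. In osmads58 CRISPR against the wild type, OsSPL14 was at 0.028 with the replicate block and 0.13 with library size alone. Between the lines, OsSPL4 was at 0.026 and OsSPL7 at -0.53 with dSpm 4b and 5b only, and OsSPL7 at -0.20 without wild type 1 and osmads58 dSpm 1 together. With 1 sample left out, the ranges that crossed 0 were -0.14 to 0.85 for OsSPL17, -0.45 to 0.017 for OsSPL3 and -0.31 to 0.042 for OsSPL18 in osmads58 dSpm against the wild type, -0.28 to 0.055 for OsSPL14 in osmads58 CRISPR against the wild type and -0.20 to 0.31 for OsSPL7 between the lines.

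Library size alone moved the median log2 fold change of all genes by 0.11 in osmads58 dSpm, 0.25 in osmads58 CRISPR and 0.13 between the lines. The median correlation among the genes lay between 0.15 and 0.24 over its 10 alternatives.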
